A study of Mus musculus with 6 samples.

Results

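The genes described here are 33 genes of the oligodendrocyte lineage, from the first precursors to cells that wrap axons in myelin. They were chosen by symbol, and 32 of the 33 matched an Ensembl gene row among the 39179 rows of the deposited count table. Lhfpl3, a precursor marker, matched no row under its current identifier and was not analysed here. Of the 32 genes, 27 had at least 30 counts summed over the 6 libraries. They were sorted into 3 stages by the known timing of each gene, with 8 precursor genes, 6 genes of committed cells and 19 genes of myelinating cells.

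The RNA came from neural progenitor cells of the cerebral cortex of E13.5 CD1 mouse embryos, which were differentiated in culture before lysis. G392E-NS cells stably expressed the G392E variant of neuroserpin, a secreted protease inhibitor of neurons whose variant polymerises inside the endoplasmic reticulum and causes an inherited dementia. GFP cells, the control, stably expressed green fluorescent protein. Each group had 3 libraries, cells with wild-type neuroserpin were not analysed here, and the labels do not say whether replicates came from separate cultures. A p-value here sets a difference against the spread among these libraries, which may be technical in origin. It exceeded counting noise, with a chi-square per degree of freedom of 37.0 to 56.4 between G392E-NS and 8.02 to 24.1 between GFP replicates.

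Oligodendrocytes arise from dividing precursors that carry the PDGF receptor and the Olig transcription factors. Precursors that leave the cell cycle pass through a brief committed state, switch on the transcription factor gene Myrf, and then produce the proteins and sulphated lipids of myelin. Cultures of cortical progenitors can give neurons, astrocytes and oligodendrocytes.

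Total counts were 15507487 to 24835835 per library. All 8 neural progenitor markers had at least 30 counts, with a summed level of 3917 to 4957 CPM (counts scaled to library size) in G392E-NS and 4156 to 4765 CPM in GFP libraries. The groups also differed in Xist, the RNA that silences an X chromosome in female cells, which averaged 1494 ± 345 CPM in G392E-NS and 1.51 ± 0.0831 CPM in GFP libraries (SD, n = 3 each). The Y-linked gene Ddx3y averaged 53.0 ± 3.11 CPM in G392E-NS and 101 ± 2.60 CPM in GFP libraries. The sex make-up of the cultures and the introduced gene move together in this design and cannot be told apart. Over the whole table, 13775 genes were tested with edgeR's quasi-likelihood test. An adjusted p under 0.05 was reached by 4.79% of them as higher and by 1.36% as lower in G392E-NS libraries, and the median log2 fold change was −0.00469.

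In both groups most precursor genes were abundant and most myelinating genes were scarce. Levels are compared between genes as TPM, counts divided by exon length and scaled to each library. The median over stage members of the group mean was 289.5 TPM in G392E-NS and 197 TPM in GFP libraries for the 7 precursor genes. These medians fall on different genes, Pdgfra in G392E-NS and Tnfrsf21 in GFP libraries. It was 17.1 TPM in G392E-NS and 16.1 TPM in GFP libraries for the 6 committed genes. For the 19 myelinating genes it was 1.402 TPM in G392E-NS and 0.882 TPM in GFP libraries. Over all libraries, a mean of at least 100 TPM was reached by 5 of 7 precursor, 2 of 6 committed and 4 of 19 myelinating genes. The precursor genes Cspg4 and Nkx2-2 averaged only 13.6 and 1.17 TPM. Sox10, a further gene of the lineage, averaged 5.88 ± 3.83 CPM in G392E-NS and 6.18 ± 2.86 CPM in GFP libraries. In bulk RNA, fewer cells of a type and less RNA per cell cannot be told apart.

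**Figure D1:**
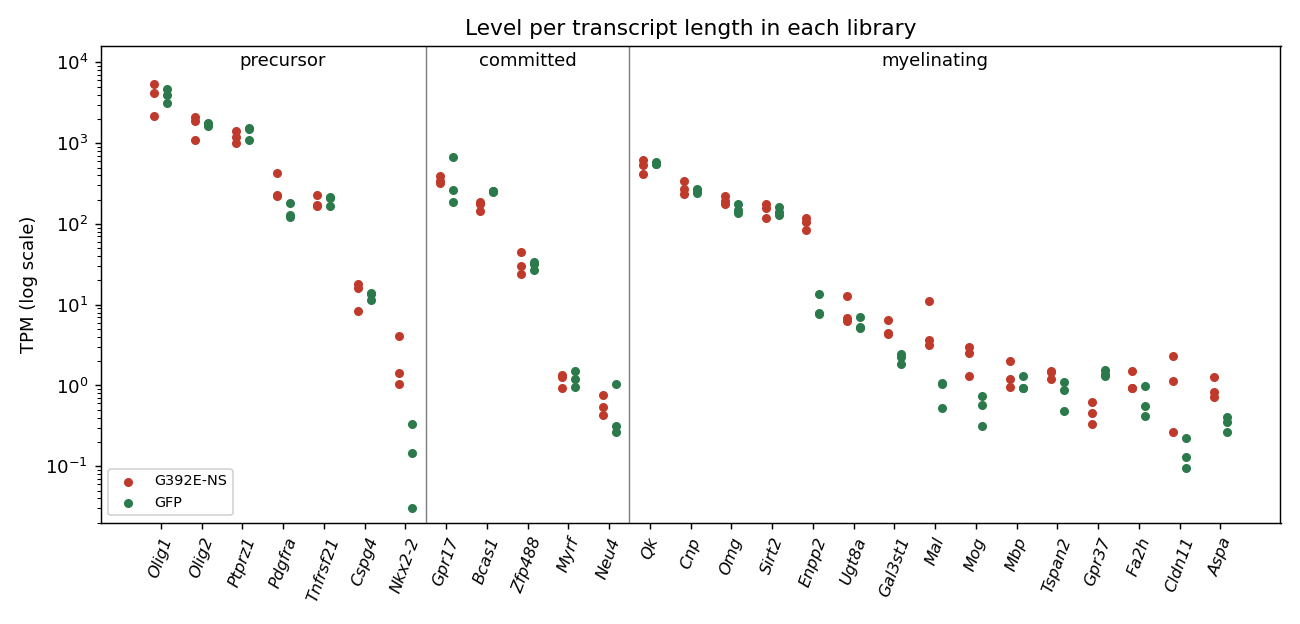
Level of the 27 genes with at least 30 counts, in TPM on a log axis, with 1 point per library (G392E-NS left and red, GFP right and green) and genes ordered by level within each stage. Nkx2-2 was at 0 in GFP replicate 3, which is drawn at 0.03 TPM (not a measured value). Precursor genes reach far above 1000 TPM, whereas 14 of 19 myelinating genes, those with under 30 counts included, averaged under 10 TPM.

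Of the 26 genes that passed the low-count filter, 7 had higher and 2 had lower counts in G392E-NS than in GFP libraries, beside the 4.79% and 1.36% of all genes tested, 6.15% in either direction. The higher genes were Pdgfra and Nkx2-2 of the precursors and Enpp2, Mal, Mog, Aspa and Gal3st1 of the myelinating genes. The lower ones were Bcas1 of the committed genes and Gpr37 of the myelinating genes. The filter asked for about 0.471 CPM in 3 libraries. Nkx2-2 and Mog reached that level in no GFP library, so they entered the test through the group in which they were high. The 4 genes Mal, Aspa, Neu4 and Fa2h reached it in only some GFP libraries. The counts of calls over the genes tested, and the p-values of Nkx2-2 and Mog, are therefore a description.

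**Figure D2:**
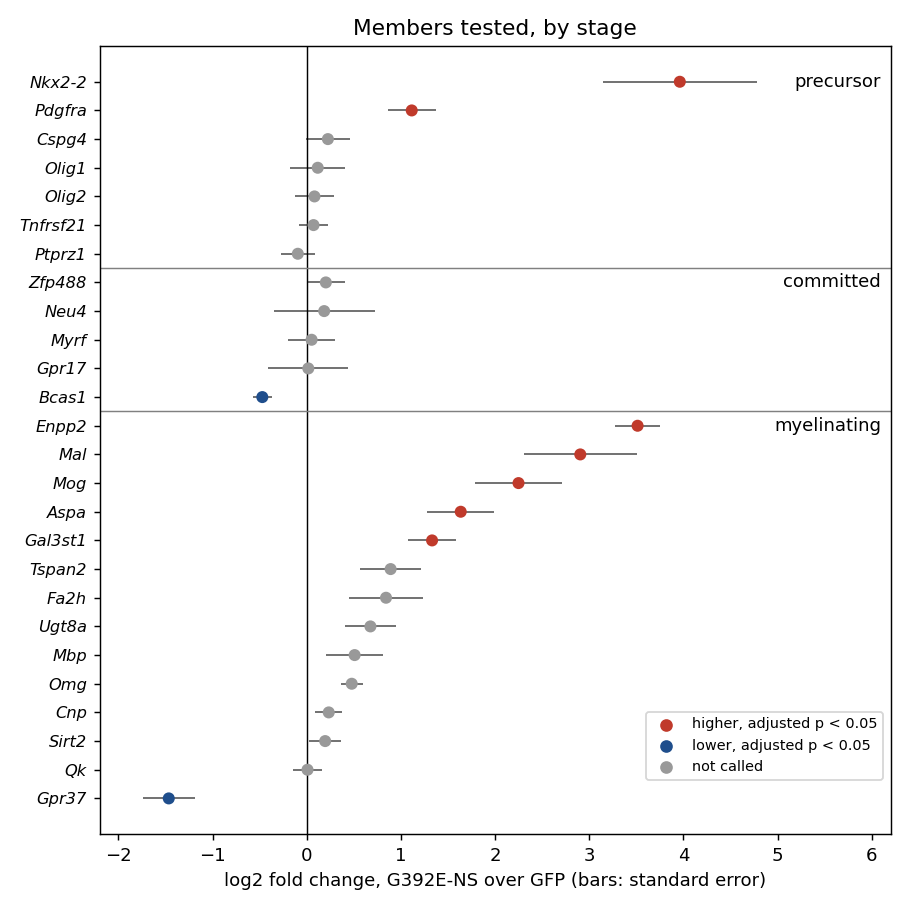
Log2 fold change of G392E-NS over GFP for the 26 genes tested, grouped by stage, with bars of 1 standard error. Red points were higher and blue points lower at an adjusted p under 0.05 (edgeR), and grey points did not pass. The 5 higher myelinating genes lie between 1.33 and 3.51, and the committed genes lie within 0.5 of 0.

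Among the precursor genes, Olig1, Olig2, Ptprz1, Pdgfra and Tnfrsf21 were abundant in both groups, and Pdgfra and Nkx2-2 rose. Pdgfra encodes the receptor for the growth factor PDGF that keeps precursors dividing (ENSMUSG00000029231, GRCm38 chromosome 5, 75152292 to 75198215, plus strand). It had 1055, 626 and 572 CPM in G392E-NS replicates 1 to 3, and 312, 292 and 436 CPM in GFP replicates 1 to 3. All G392E-NS libraries lay above all GFP libraries, and replicate 1 was the highest. Pdgfra rose 2.17-fold, or 1.12 as a log2 fold change (SE 0.26, adjusted p = 0.0435). Pdgfra was called under 6 of the 12 alternative settings, and over the 12 the log2 fold change ran from 0.77 to 1.31 and the adjusted p reached 0.172, the value without GFP replicate 1. An antisense gene, Gm42802, shares 456 exon bases with Pdgfra and was not analysed here.

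Nkx2-2 encodes a homeodomain factor that promotes oligodendrocyte differentiation (ENSMUSG00000027434, chromosome 2, 147177546 to 147194243, minus strand). It had 70, 27 and 12 counts in G392E-NS libraries, against 4, 2 and 0 counts in GFP libraries. These are 1.61 ± 1.14 CPM in G392E-NS and 0.110 ± 0.116 CPM in GFP libraries (SD, n = 3 each), so the gene was near the lower end of detection in GFP cells. The log2 fold change was 3.96 (SE 0.82, adjusted p = 0.0303), and it was 3.19 without G392E-NS replicate 1 (adjusted p = 0.0418), 4.98 without GFP replicate 1 (adjusted p = 0.0757) and 3.31 without GFP replicate 3 (adjusted p = 0.0732). An antisense gene, Nkx2-2os, shares 278 exon bases with it and had 21 counts in all. Reads of the pair cannot be told apart without strand. With all 6 libraries, Nkx2-2 passed the low-count filter through its G392E-NS libraries alone, so its adjusted p is a description.

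The other precursor genes did not pass the test. Olig1 and Olig2, the basic helix-loop-helix factors that specify the lineage, averaged 2203 ± 864 and 1103 ± 308 CPM in G392E-NS libraries. In GFP libraries they averaged 2031 ± 409 and 1042 ± 59.1 CPM. By TPM they stood above 99.9% and 99.7% of the genes tested. The log2 fold changes were 0.12 (SE 0.29) for Olig1 and 0.08 (SE 0.20) for Olig2, with adjusted p of 0.852 and 0.849. Olig1 ranged from 1303 CPM in G392E-NS replicate 2 to 3026 CPM in G392E-NS replicate 3, so its spread within that group exceeded the difference between the groups. Without G392E-NS replicate 3 the log2 fold changes of Olig1 and Olig2 were −0.18 and −0.10.

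Ptprz1, a receptor-type tyrosine phosphatase of precursors and radial glia, had the most counts of all members, 560764 over the 6 libraries. It averaged 4422 ± 515 CPM in G392E-NS and 4722 ± 854 CPM in GFP libraries (log2 fold change −0.09, SE 0.18, adjusted p = 0.804). Cspg4, a surface proteoglycan of precursors that pericytes also carry, averaged 43.9 ± 14.3 CPM in G392E-NS and 37.5 ± 3.88 CPM in GFP libraries (log2 fold change 0.22, SE 0.23, adjusted p = 0.602). For Tnfrsf21, a death receptor of the TNF receptor family, the means were 205 ± 36.8 CPM in G392E-NS and 195 ± 24.0 CPM in GFP libraries (0.07, SE 0.15, adjusted p = 0.819). The groups overlapped for all 3 of these genes.

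Among the committed genes, Bcas1 fell and the other 4 tested did not pass. Bcas1 encodes a protein of newly formed and early myelinating oligodendrocytes (ENSMUSG00000013523, chromosome 2, 170346991 to 170427845, minus strand). It had 165, 149 and 182 CPM in G392E-NS libraries, against 228, 226 and 235 CPM in GFP libraries. The GFP values lay close together and all lay above the G392E-NS values. Bcas1 fell 1.39-fold (log2 fold change −0.47, SE 0.10, adjusted p = 0.0323). The antisense genes Bcas1os1 and Bcas1os2 share exon bases with it and had 56 and 133 counts, beside 24246 for Bcas1.

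Gpr17, a receptor carried for a short time by committed precursors, was abundant and variable (ENSMUSG00000052229, chromosome 18, 31942997 to 31949636, minus strand). It had 439, 559 and 429.6 CPM in G392E-NS libraries, against 229, 329.7 and 852 CPM in GFP libraries. GFP replicate 3 was the highest of all 6 libraries and the other GFP libraries were the lowest. The log2 fold change was 0.02 (SE 0.42, adjusted p = 0.986), and without GFP replicate 3 it was 0.77 (adjusted p = 0.0862). Gpr17 shares 188 exon bases with Lims2 on the opposite strand, which had 2955 counts.

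Zfp488, a zinc finger factor that works with Olig2, averaged 36.9 ± 10.8 CPM in G392E-NS and 32.1 ± 4.12 CPM in GFP libraries (log2 fold change 0.20, SE 0.20, adjusted p = 0.596). Myrf, the factor that switches on the myelin genes, was low in both groups, at 2.64 ± 0.380 CPM in G392E-NS and 2.53 ± 0.606 CPM in GFP libraries (0.05, SE 0.25, adjusted p = 0.928). The sialidase gene Neu4 had 42 counts in G392E-NS and 36 in GFP libraries (0.19, SE 0.54, adjusted p = 0.874). Enpp6, a choline-releasing enzyme that marks newly formed oligodendrocytes, had 4 counts in G392E-NS and 0 in GFP libraries and was not tested. Committed genes thus split between abundant Gpr17 and Bcas1 and nearly undetected Enpp6, in both groups.

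Among the myelinating genes, Enpp2 showed the change with the smallest p of all members. Enpp2 encodes autotaxin, a secreted enzyme that makes the signalling lipid lysophosphatidic acid (ENSMUSG00000022425, chromosome 15, 54838901 to 54952892, minus strand). It had 173, 168 and 125 CPM in G392E-NS libraries, against 10.7, 11.04 and 18.8 CPM in GFP libraries. The lowest G392E-NS library lay far above the highest GFP library. Enpp2 rose 11.4-fold (log2 fold change 3.51, SE 0.24, adjusted p = 0.000267), and it remained called under each of the 12 alternative settings. The antisense gene Gm26684 shares 345 exon bases with Enpp2 and had 7 counts. Autotaxin is also made by cells outside the lineage, such as choroid plexus epithelium.

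The genes of myelin membrane proteins were scarce, and 2 of them rose. Mog, a protein of the outer myelin surface (ENSMUSG00000076439, chromosome 17, 37010743 to 37023398, minus strand), had 26, 33 and 9 counts in G392E-NS libraries, against 4, 6 and 3 counts in GFP libraries. Its log2 fold change was 2.25 (SE 0.46, adjusted p = 0.0295), and even the highest library held only 1.3997 CPM. Mog passed the low-count filter through its G392E-NS libraries alone, so this adjusted p is a description. Mal, a membrane protein that sorts cargo to myelin and to apical membranes of epithelia (ENSMUSG00000027375, chromosome 2, 127633226 to 127656695, minus strand), had 2.20, 8.48 and 2.61 CPM in G392E-NS libraries, against 0.691, 0.351 and 0.727 CPM in GFP libraries. G392E-NS replicate 2 was more than 3 times as high as the other libraries of its group. Mal rose 7.49-fold (log2 fold change 2.91, SE 0.60, adjusted p = 0.031), and without that replicate the log2 fold change was 2.01 (adjusted p = 0.0258).

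Mbp, the main cytosolic protein of compact myelin, had 4.28, 2.25 and 2.67 CPM in G392E-NS libraries, against 1.90, 2.71 and 1.88 CPM in GFP libraries. The groups overlapped, and Mbp did not pass (log2 fold change 0.51, SE 0.30, adjusted p = 0.365). By TPM, Mbp stood above only 7.6% of the genes tested. Mag, Mobp, Opalin and Ermn, which encode proteins of the myelin sheath and its cytoskeleton, had 7, 8, 15 and 27 counts over the 6 libraries and were not tested. Cldn11, the tight junction claudin of myelin, also missed the filter, with 26, 14 and 2 counts in G392E-NS libraries, against 1, 2 and 1 counts in GFP libraries. With the filter lowered to 30 counts in all, its log2 fold change was 3.15 (adjusted p = 0.0608). Cldn11 passed by edgeR without a low-count filter (3.14, adjusted p = 0.00956) and without G392E-NS replicate 3 (3.56, adjusted p = 0.0248). Without GFP replicate 1, 2 or 3 its adjusted p was 0.194, 0.158 and 0.154. Tspan2, a tetraspanin of myelin, averaged 1.73 ± 0.138 CPM in G392E-NS and 0.942 ± 0.359 CPM in GFP libraries. Its groups did not overlap, but it did not pass (log2 fold change 0.89, SE 0.32, adjusted p = 0.152).

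Gal3st1 and Aspa, which encode enzymes of myelin lipids and metabolism, rose, and the lipid enzyme genes Ugt8a and Fa2h did not pass. Gal3st1, the sulphotransferase that makes sulphatide (ENSMUSG00000049721, chromosome 11, 3983636 to 3999326, plus strand), had 3.24, 2.46 and 2.35 CPM in G392E-NS libraries, against 1.09, 0.903 and 1.20 CPM in GFP libraries. The groups did not overlap, and Gal3st1 rose 2.52-fold (log2 fold change 1.33, SE 0.25, adjusted p = 0.022). Aspa, which splits N-acetylaspartate in oligodendrocytes (ENSMUSG00000020774, chromosome 11, 73304992 to 73329596, minus strand), had 1.25, 2.12 and 1.11 CPM in G392E-NS libraries, against 0.576, 0.502 and 0.385 CPM in GFP libraries. It rose 3.11-fold (log2 fold change 1.64, SE 0.36, adjusted p = 0.0373). Ugt8a, which makes the galactosylceramide that Gal3st1 sulphates, averaged 10.2 ± 3.70 CPM in G392E-NS and 6.40 ± 1.22 CPM in GFP libraries (0.68, SE 0.27, adjusted p = 0.193). For Fa2h, which hydroxylates the fatty acids of these lipids, the means were 0.868 ± 0.222 CPM in G392E-NS and 0.477 ± 0.222 CPM in GFP libraries (0.84, SE 0.39, adjusted p = 0.255). The groups overlapped for Ugt8a and for Fa2h.

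Gpr37, a receptor of differentiating oligodendrocytes that restrains myelination, was lower in G392E-NS libraries (ENSMUSG00000039904, chromosome 6, 25665878 to 25690729, minus strand). It had 0.956, 0.551 and 0.717 CPM in G392E-NS libraries, against 2.02, 2.26 and 1.92 CPM in GFP libraries. All G392E-NS libraries lay below all GFP libraries. Gpr37 fell 2.76-fold (log2 fold change −1.47, SE 0.28, adjusted p = 0.0221).

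The abundant genes of the myelinating stage are ones that other neural cells are also known to express. None of the 4 passed by edgeR with all 6 libraries and the low-count filter. By DESeq2 1 of them passed, Omg (adjusted p = 0.0113). Omg also passed by edgeR without the low-count filter (adjusted p = 0.0309) and without GFP replicate 3 (adjusted p = 0.0369). Qk, an RNA-binding protein of glia and progenitors, averaged 1949 ± 345 CPM in G392E-NS and 1938 ± 53.7 CPM in GFP libraries (log2 fold change 0.01, SE 0.16, adjusted p = 0.982). Cnp, a phosphodiesterase of myelin that precursors already carry, averaged 268 ± 52.3 CPM in G392E-NS and 228 ± 13.9 CPM in GFP libraries (0.23, SE 0.15, adjusted p = 0.384). Cnp shares 154 exon bases with Dnajc7 on the opposite strand, which had 23225 counts against 30315 for Cnp. The deacetylase gene Sirt2 averaged 201 ± 44.3 CPM in G392E-NS and 175 ± 20.999 CPM in GFP libraries (0.20, SE 0.17, adjusted p = 0.537), and it shares 42 exon bases with Nfkbib. Omg, a surface protein that inhibits neurite outgrowth, had 124, 109.6 and 113 CPM in G392E-NS libraries, against 72.6, 79.7 and 96.1 CPM in GFP libraries. Its groups did not overlap, and it just missed the threshold (log2 fold change 0.48, SE 0.12, adjusted p = 0.0555). Omg lies in an intron of Nf1 on the opposite strand, so unspliced Nf1 reads may be counted there if strand was not used.

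**Figure D3:**
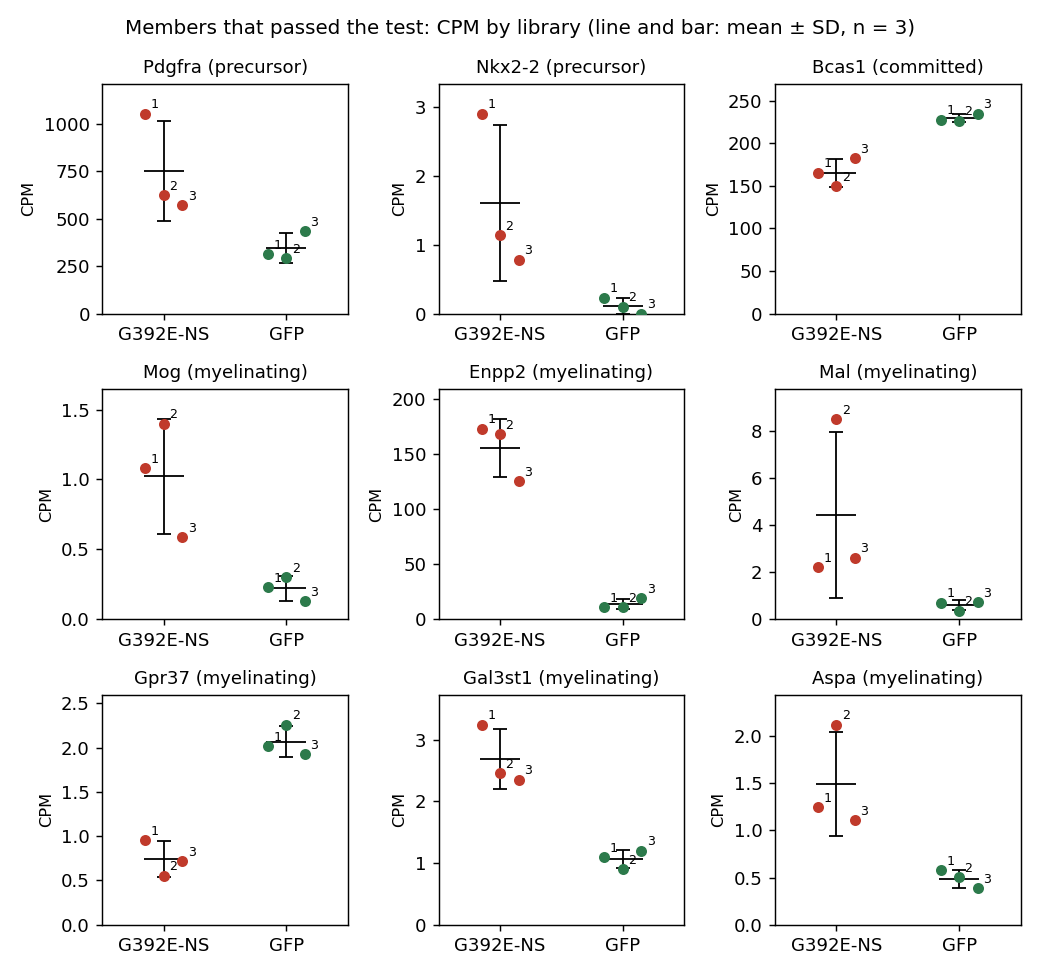
CPM of the 9 genes that passed the test in each library (points, numbered by replicate), with the mean and SD of each group as line and bar (n = 3 each), G392E-NS left and GFP right. The axes start at 0. The groups do not overlap for any of the 9 genes, which were picked by a test on these same libraries. Of all genes tested, 15.7% had all G392E-NS libraries above and 12.9% below all GFP libraries. The highest G392E-NS library is 3.25 times the next for Mal, 2.54 times for Nkx2-2, 1.7 times for Aspa and 1.69 times for Pdgfra.

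The sequence before the transcription start is shown for the higher genes that have a single start in the RefSeq table and no annotated exon of their own there. These 4 windows of 250 bases (GRCm38.p6, written 5′ to 3′ on the gene's strand) end just before the start. Capitals mark matches, on either strand, to the SOX motif AACAAAG, the E-box CAGCTG bound by Olig-type factors or the MYRF motif CTGGNAC.
Pdgfra (chr5:75152001-75152250, plus strand): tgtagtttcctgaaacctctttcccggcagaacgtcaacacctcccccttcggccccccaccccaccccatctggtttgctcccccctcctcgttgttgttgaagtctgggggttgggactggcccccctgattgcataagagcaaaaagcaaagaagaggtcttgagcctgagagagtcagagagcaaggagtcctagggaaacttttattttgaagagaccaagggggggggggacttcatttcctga
Mal (chr2:127656696-127656945, minus strand): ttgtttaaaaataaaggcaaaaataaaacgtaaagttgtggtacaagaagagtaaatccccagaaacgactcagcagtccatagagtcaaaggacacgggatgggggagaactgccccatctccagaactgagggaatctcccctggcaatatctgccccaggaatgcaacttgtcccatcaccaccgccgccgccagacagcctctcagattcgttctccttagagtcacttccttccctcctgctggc
Mog (chr17:37023399-37023648, minus strand): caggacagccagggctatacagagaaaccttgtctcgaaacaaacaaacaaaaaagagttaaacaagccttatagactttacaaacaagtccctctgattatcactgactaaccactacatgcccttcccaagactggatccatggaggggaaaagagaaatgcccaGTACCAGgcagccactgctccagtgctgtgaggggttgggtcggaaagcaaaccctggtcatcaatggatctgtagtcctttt
Aspa (chr11:73324638-73324887, minus strand): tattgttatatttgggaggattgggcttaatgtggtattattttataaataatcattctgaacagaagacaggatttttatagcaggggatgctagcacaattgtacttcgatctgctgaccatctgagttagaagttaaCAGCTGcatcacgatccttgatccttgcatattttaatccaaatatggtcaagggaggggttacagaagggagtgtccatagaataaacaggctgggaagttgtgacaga
Mog held 1 MYRF match, 83 bases before the start, and Aspa held 1 E-box, 110 bases before it. The Aspa window lies inside the chromosome span given above for that gene, so its E-box stands before the RefSeq start only. Pdgfra and Mal held none of the 3 motifs in these windows. RefSeq windows, 29 in all, were found for 24 of the 32 genes. A MYRF match was present in any window of 4 of the 24, an E-box in 1 and a SOX match in 2. Of all 32851 RefSeq windows, 16.06%, 13.0% and 5.03% held these motifs. The first values count genes and the second count windows, so the units differ. A match is a run of letters and not a bound site.

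Counts of changed genes were set side by side by stage. Of 7 precursor genes tested, 2 were higher and 0 lower, with a median log2 fold change of 0.12. Of 5 committed genes, 0 were higher and 1 lower, with a median of 0.05. Of 14 myelinating genes, 5 were higher and 1 lower, with a median of 0.76. These calls stand beside 4.79% higher and 1.36% lower of all genes tested. Fold changes above 0 were found for 6 of 7, 4 of 5 and 13 of 14 genes of these stages, and for 49.3% of all genes tested. All 3 G392E-NS libraries lay above all 3 GFP libraries for 2, 0 and 7 of them, beside 15.7% of all genes tested. They lay below for 0, 1 and 1 of them, beside 12.9% of all genes tested. No committed gene was higher at an unadjusted p under 0.05 or by DESeq2 either, and no precursor gene was lower by any of these. DESeq2 called 7.87% of all genes tested higher and 2.66% lower, and the share at an unadjusted p is not given here. The difference between stages was not tested, because the genes were chosen with earlier results known and the filter favoured low genes that were higher in 1 group.

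In absolute terms the rise was small in all myelinating genes that passed but Enpp2. Mog, Mal, Gal3st1 and Aspa together with Nkx2-2 and Gpr37 were the 6 called genes that averaged under 10 TPM. The summed level of the myelinating genes, most of it from Qk, was 2367 to 2893 CPM in G392E-NS and 2370.0 to 2539.8 CPM in GFP libraries. For the committed genes the sum was 643 to 747 CPM in G392E-NS and 487 to 1126 CPM in GFP libraries. Precursor genes summed to 6849 to 9695 CPM in G392E-NS and 7068 to 9254 CPM in GFP libraries. The groups overlapped in each of these sums. In TPM, in which long genes such as Qk weigh less, the myelinating genes summed to 1236 to 1354 in G392E-NS and 1091 to 1198 in GFP libraries, and the groups did not overlap. Without Enpp2 these sums were 1234, 1168 and 1153 TPM in G392E-NS and 1084, 1146 and 1185 TPM in GFP libraries, which overlap.

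Other genes of the lineage did not move one way. Of 22 further oligodendrocyte lineage genes, 13 were tested, and 2 were higher and 1 lower, beside 4.79% and 1.36% of all genes tested. The median log2 fold change of the 13 was −0.06. Vcan, a matrix proteoglycan of committed precursors and of other neural cells, averaged 74.4 ± 37.9 CPM in G392E-NS and 2.92 ± 0.499 CPM in GFP libraries (log2 fold change 4.68, SE 0.39, adjusted p = 0.000729). Car2, a carbonic anhydrase of oligodendrocytes and other cells, averaged 183 ± 51.4 CPM in G392E-NS and 65.2 ± 5.51 CPM in GFP libraries (log2 fold change 1.49, SE 0.20, adjusted p = 0.0054). Plxnb3, a semaphorin receptor of the lineage, averaged 18.1 ± 8.999 CPM in G392E-NS and 87.6 ± 25.8 CPM in GFP libraries (log2 fold change −2.29, SE 0.34, adjusted p = 0.00894). Of 26 regulators of oligodendrocyte differentiation, among them Notch, Id, Hes and FGF receptor genes, 25 were tested. By edgeR 0 of these passed in either direction, beside 6.15% of all genes tested. By DESeq2 0 were higher and 1 lower, beside 7.87% and 2.66% of all genes tested. At an unadjusted p under 0.05, 2 were higher and 2 lower, and the share of all genes at that threshold is not given here. The smallest adjusted p by edgeR was that of the chromatin remodeller gene Chd7, 0.102, with a log2 fold change of −0.54 (SE 0.16).

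Some markers of another cell type were also higher in G392E-NS libraries. Of 10 astrocyte markers, 5 were higher and 0 lower, beside 4.79% and 1.36% of all genes tested. Their median log2 fold change was 1.34. By DESeq2 7 were higher and 0 lower, beside 7.87% and 2.66% of all genes tested. At an unadjusted p under 0.05, 9 were higher and 0 lower, and the share of all genes at that threshold is not given here. Fgfr3, Gjb6, Slc1a2, Aldoc and Aldh1l1 had log2 fold changes of 1.56, 3.68, 1.32, 1.99 and 1.11, and adjusted p of 0.00139, 0.00485, 0.0144, 0.0185 and 0.0302. Their list summed to 7783, 12874 and 8226 CPM in G392E-NS libraries, against 4836, 3379 and 4577 CPM in GFP libraries. All 10 had counts. The sum was highest in G392E-NS replicate 2, where 3 of the 7 higher oligodendrocyte genes, Mal, Mog and Aspa, were also highest. The other 4, Pdgfra, Nkx2-2, Enpp2 and Gal3st1, were highest in G392E-NS replicate 1, where the sum was the lowest of that group. The part of astrocyte RNA in the changes of the oligodendrocyte genes was not tested.

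Among neuron markers, Gad1 was the 1 of 8 tested that passed by edgeR, and it fell (log2 fold change −0.65, SE 0.10, adjusted p = 0.00854). By DESeq2 1 neuron marker was higher, Syt1, and 1 lower, beside 7.87% and 2.66% of all genes tested. At an unadjusted p under 0.05, 2 were higher and 1 lower, and the share of all genes at that threshold is not given here. Neuron markers summed to 3166 to 4376 CPM in G392E-NS and 3428 to 3951 CPM in GFP libraries. Of 8 neural progenitor markers, Prom1 rose (log2 fold change 2.52, adjusted p = 0.00303) and Nes fell (log2 fold change −0.77, adjusted p = 0.048). Over all genes tested, edgeR called 4.79% higher and 1.36% lower. Schwann cells make myelin outside the brain, and 4 of their 8 markers had under 30 counts, Foxd3 among them with 0. The Schwann cell list summed to 18.0 to 24.3 CPM in G392E-NS and 11.1 to 14.7 CPM in GFP libraries, and none of its 4 members tested passed by edgeR. At an unadjusted p under 0.05, 2 of them were higher, again without a share of all genes beside it. By DESeq2 1 was higher, beside 7.87% of all genes tested. That gene was S100b (edgeR adjusted p = 0.0969), which also stands on the astrocyte list.

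Pdgfra and Cspg4 are also carried by fibroblasts and pericytes. Of 8 fibroblast markers, 6 had under 30 counts over the 6 libraries. Col1a1 had 9 counts, Col1a2 and Col3a1 had 1 each, and Dcn, Lum and Twist2 had 0. The fibroblast list summed to 4.62 to 10.01 CPM in G392E-NS and 9.69 to 13.0 CPM in GFP libraries, nearly all of it from Fn1 (edgeR log2 fold change −0.80, adjusted p = 0.117), which was lower by DESeq2. Of the mural cell markers, Rgs5, Kcnj8, Anpep, Des and Vtn had 5, 1, 1, 4 and 2 counts, and Notch3, which progenitors also express, made up most of the list's 88.8 to 131 CPM in G392E-NS and 80.5 to 114 CPM in GFP libraries (adjusted p = 0.647). Pdgfrb, which stands on both the fibroblast and the mural cell list, had 53 counts and missed the low-count filter. It averaged 0.705 ± 0.730 CPM in G392E-NS and 0.0570 ± 0.0988 CPM in GFP libraries. The cell source of the Pdgfra and Cspg4 counts was not tested. All 8 microglia markers had under 30 counts. Of the endothelial markers, Cldn5 and Cdh5 were at 0, and Kdr, the 1 tested, had an adjusted p of 0.946.

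The calls rested on the full set of libraries in all cases but Enpp2. Without GFP replicate 1, and likewise without GFP replicate 2, Enpp2 was the 1 member called. The other 8 called genes had adjusted p of 0.0757 to 0.172 without GFP replicate 1 and of 0.0795 to 0.155 without GFP replicate 2. Enpp2, Gpr37 and Gal3st1 of the 9 remained called without GFP replicate 3. With G392E-NS replicate 1 left out 8 of the 9 remained called, with replicate 2 left out 4, and with replicate 3 left out 7. Those lost had adjusted p of 0.0501 without replicate 1 (Bcas1), of 0.0538 to 0.0903 without replicate 2 (Pdgfra, Bcas1, Mog, Gpr37 and Aspa) and of 0.0623 and 0.0502 without replicate 3 (Gpr37 and Aspa). None of the 9 changed direction under any of the 12 settings. Over the whole table there were 981 higher genes with G392E-NS replicate 1 left out, 196 with GFP replicate 1 left out, 207 with GFP replicate 2 left out and 660 with all libraries.

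**Figure D4:**
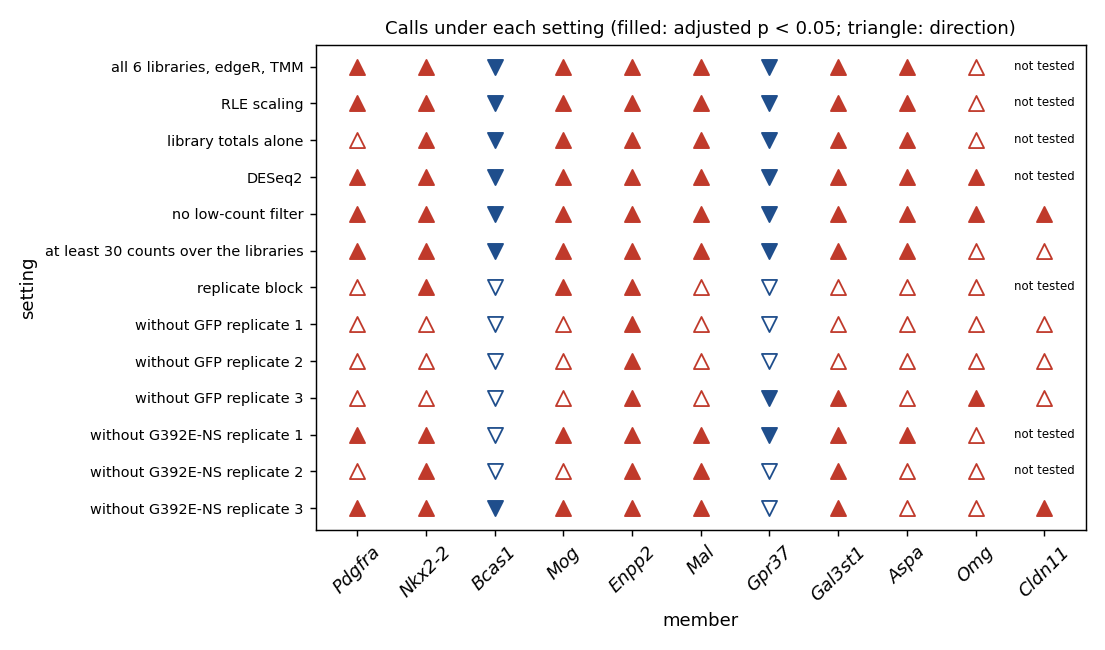
Calls of the 9 genes, and of Omg and Cldn11, with all 6 libraries and under 12 alternative settings. Triangles point in the direction of the fold change of G392E-NS over GFP, filled ones passed at an adjusted p under 0.05, and Cldn11 was not tested under 7 of the 13 settings. Enpp2 is filled throughout, and without GFP replicate 1 or 2 it is the 1 filled gene.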

How the data were processed

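RNA of 3 G392E-NS and 3 GFP libraries was sequenced on an Illumina HiSeq2000, per the labels' protocols. The authors deposited 1 table of raw counts per Ensembl gene. Per the submitters' processing notes, which state no roles, the build named is GRCm38 and the tools are HTSeq 0.6.1, TopHat2 2.0.12, DESeq2 1.4.5 and R 3.2.2. For the annotation release and strand setting, the sources used here give nothing.

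From these counts, genes were filtered with filterByExpr, scaled by TMM and tested by edgeR 4.0.16's quasi-likelihood test in R 4.3.3 (G392E-NS against GFP), with Benjamini-Hochberg adjustment over 13775 genes and a threshold of 0.05. CPM are TMM-scaled. TPM use the union exon length of GENCODE M21, and promoter sequences are from RefSeq (GRCm38.p6). The test was checked on simulated data. The genes named are all members, the members of other lists that passed, and the nearest member where none did. Further marker genes were named after their values were seen. The members and lists were chosen with earlier results of these data known. Alternatives were RLE scaling, library totals alone, DESeq2 1.42.0, other low-count filters, a replicate block and each library left out.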

Additional observations from a re-analysis of the deposited data

How the results depend on the processing

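Over the whole table, DESeq2 called 1084 genes higher and 366 lower (7.87% and 2.66% of those tested), a test without a low-count filter 1205 and 374 (5.2% and 1.61%), and a fit with the replicate number as a block 217 and 50 (1.58% and 0.363%), against 660 and 187 (4.79% and 1.36%). The correlations of same-numbered deviations from the group means were 0.0338, −0.383 and −0.255. Those of differently numbered ones ran from −0.0597 to 0.347. With 3 libraries per group, these values cannot show whether replicate numbers paired the libraries. With the block, 3 members were higher (1 precursor and 2 myelinating genes, Nkx2-2, Mog and Enpp2) and 0 lower, committed and myelinating genes included. With library totals alone, 1 precursor gene was higher. Without each library in turn, 1.38% to 7.04% of the genes tested were higher and 0.324% to 2.81% lower over the whole table. Over all members 1 to 7 were then higher and 0 to 1 lower, with a median log2 fold change of 0.18 to 0.45. The higher precursor genes numbered 0 to 2 (median −0.0772 to 0.39), the lower committed genes 0 to 1 (median −0.10 to 0.25), and the myelinating genes 1 to 5 higher and 0 to 1 lower (median 0.49 to 0.87). The sign changed for 8 genes that had not passed. Gpr17 was at −0.0474 and Qk at −0.0543 with library totals alone, where Myrf was at −0.00714. Without the filter Gpr17 was at −0.00898 and Qk at −0.00889, and with the block Qk was at −0.00707. Without 1 library, the log2 fold change ran from −0.18 to 0.39 for Olig1, −0.10 to 0.29 for Olig2, −0.0772 to 0.16 for Tnfrsf21, −0.31 to 0.77 for Gpr17, −0.10 to 0.25 for Myrf, −0.17 to 1.07 for Neu4, −0.0608 to 0.38 for Zfp488 and −0.11 to 0.15 for Qk. The cause was not tested. Enpp6, Mag, Mobp, Opalin and Ermn, which missed the low-count filter, had adjusted p of 0.37 to 0.989 in the fit without it, at 4 to 27 counts each. Cldn11, which also missed the filter, was higher in that fit (log2 fold change 3.14, adjusted p = 0.00956), at 46 counts.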
